A study of Mus musculus with 27 samples.

Results

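The genes described here are 10 imprinted genes or neighbours of imprinted genes on mouse chromosome 6: Peg10, Sgce, Ppp1r9a, Asb4, Pon2, Pon3 and Calcr of the Peg10 domain, Mest and Copg2 of the Mest domain, and Nap1l5. They are 10 of the 25209 genes in each of 8 tables of differential expression. They were chosen by name, because earlier results of the same tables had shown changes of Peg10, Sgce and Mest, so the values of all 10 are given as a description. The study asked how loss of Zfp512b, the mouse ZNF512B gene, affects embryonic stem cells and their differentiation. RNA of V6.5 mouse embryonic stem cells was sequenced in 27 libraries, from wild-type cells (WT) and from the knockout clones KO #4 and KO #8, below KO4 and KO8. In both clones a triple transcriptional terminator stood behind exon 3 of Zfp512b, with mCherry or puromycin resistance cassettes in front of it. Each knockout is 1 clone, and the WT cells had not gone through the same editing and selection. Naive cells in 2i/LIF medium (day 0) gave 3 libraries of each genotype. Primed cells (day 2), embryoid body cultures directed to cardiomyocytes (CM, day 7.5) and retinoic acid-treated cultures directed to neural progenitors (NPC, day 10) gave 2 libraries of each. Nothing in the sources states that libraries of a group came from separate cultures, so the p-values measure only the spread between libraries, which may be technical.

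An imprinted gene is expressed mainly from the allele of 1 parent, under the control of DNA methylation that a region near it received in the egg or the sperm. Peg10, a gene derived from a retrotransposon and needed for the placenta, and Sgce, which encodes ε-sarcoglycan, are expressed from the paternal allele and share a CpG island between their starts. Mest, an enzyme of the α/β-hydrolase fold, and Nap1l5, a relative of nucleosome assembly proteins that lies within Herc3, are paternally expressed as well. Asb4, which recruits substrates to a ubiquitin ligase, is expressed from the maternal allele. Imprinting of Ppp1r9a, Pon2, Pon3, Calcr and Copg2 has been described in some tissues. Which allele was transcribed was not measured in these libraries.

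By the mm9 annotation (GENCODE), the genome build used for the alignment, Sgce (ENSMUSG00000004631.9, chromosome 6, 4624350 to 4697204, minus strand) and Peg10 (ENSMUSG00000092035.1, 4697306 to 4710514, plus strand) stand head to head with 101 bases between them. The span from Calcr to Asb4 is 1.75 Mb. Mest (ENSMUSG00000051855.8, 30673547 to 30698457, plus strand) lies 25.3 Mb beyond Asb4, and its last 904 bases are also exonic in Copg2, on the opposite strand. Nap1l5 (ENSMUSG00000055430.3, 58855228 to 58857120, minus strand) lies another 28.0 Mb on, within the span of Herc3, where no Herc3 exon overlaps it. Whether reads were counted by strand is not given in the sources used here, so reads of the part shared by Mest and Copg2 cannot be assigned to 1 of them with certainty.

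Promoters were matched in the RefSeq table (GRCm38.p6) for 8 of the 10 genes, all except Peg10 and Sgce. Those of Mest and Nap1l5 are shown because these are the paternally expressed genes with an entry, and because each holds 2 copies of TGCCGC, the letters that the imprint-maintaining protein ZFP57 binds. Each sequence runs from 250 bases before to 50 bases after the start of transcription. Capitals mark TGCCGC, or GCGGCA where it lies on the other strand.
Mest, chr6:30737803-30738102, plus strand: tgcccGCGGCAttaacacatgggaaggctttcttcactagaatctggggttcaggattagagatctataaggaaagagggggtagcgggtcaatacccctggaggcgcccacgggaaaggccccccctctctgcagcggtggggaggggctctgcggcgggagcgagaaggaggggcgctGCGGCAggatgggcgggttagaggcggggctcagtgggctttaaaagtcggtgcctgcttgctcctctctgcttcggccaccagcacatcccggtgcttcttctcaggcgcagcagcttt
Nap1l5, chr6:58907077-58907376, minus strand: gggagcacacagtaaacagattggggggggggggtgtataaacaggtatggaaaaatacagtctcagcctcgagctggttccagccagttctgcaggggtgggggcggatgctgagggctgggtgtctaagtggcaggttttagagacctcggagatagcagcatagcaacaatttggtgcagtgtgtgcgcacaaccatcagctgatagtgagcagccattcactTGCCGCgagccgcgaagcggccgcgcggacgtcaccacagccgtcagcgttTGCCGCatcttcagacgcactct
Of 32851 promoters of this length, 11.6% held TGCCGC on either strand and 1.53% held 2 or more. Both promoters held 17 CG dinucleotides, against a median of 7 over all promoters. Such copies were not limited to the paternally expressed genes, since a promoter of Calcr also held 2, and those of Pon3 and Copg2 held 1 each. A second Mest start further upstream had 8 CG and no TGCCGC. A match describes letters in the window and says nothing of binding there.

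The libraries held between 15.1 and 39.7 megareads (M), with 34.2 to 39.7 M in naive cells and 15.1 to 19.5 M in the later stages. Zfp512b was lower than in WT in all 8 tables, by log2 changes of -1.93 to -3.15. The median log2 change of chromosome 6 genes lay between -0.03 and -0.01 in the 8 tables, and that of chromosome 8 genes between 0.41 and 0.51. In CM cultures the summed level of 4 cardiomyocyte markers (Tnnt2, Myh6, Actn2, Nkx2-5) was 18819.9 normalized counts in WT, 110.3 in KO4 and 9381 in KO8. The 4 primitive endoderm markers (Gata6, Sox17, Sox7, Dab2) summed to 7272 in WT CM cultures, 1119 in KO4 and 8646 in KO8, and to 9826, 9338 and 6840.4 in NPC cultures. No marker of either list was at 0 in those 2 stages. Of the neural markers, Sox1 stood in CM cultures at 35.1 in WT, 3478 in KO4 and 129.4 in KO8, Pax6 at 60.0, 2791 and 92.0, and Nes at 4389, 5359 and 1722. In NPC cultures Sox1 stood at 61.3, 203 and 246, Pax6 at 175, 414 and 399, and Nes at 3624, 5064 and 5094. The 5 naive markers (Nanog, Klf4, Esrrb, Tbx3, Prdm14) summed to 79745 in naive WT cells, 69595 in KO4 and 69248 in KO8, and the 4 primed markers (Fgf5, Otx2, Pou3f1, Dnmt3b) to 22829.7, 20564 and 23278 in primed cells. Dnmt3b made up 19966 of that WT sum in primed cells. Of the 4 primed markers, 0 were called higher there in either clone, 3 were lower in KO4 and 1 in KO8. In naive cells those 4 primed markers summed to 5592, 7989 and 8079.5. The 5 trophoblast markers (Cdx2, Elf5, Gata3, Eomes, Tfap2c) summed to 4645, 3196 and 4289.9 in naive cells, with Elf5 at 0. Of this WT sum, 1 marker made up 4450, so the sums mostly follow that marker. Of the 4 tested, 2 were called higher and 1 lower in each clone, with a median log2 change of 0.54 in KO4 and 0.39 in KO8. The part of these marker differences in the results was not tested. In bulk RNA, fewer cells that express a gene and less RNA per cell cannot be told apart.

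A gene was called changed where the adjusted p of the authors' DESeq2 Wald test lay under 0.05, and not tested where the table gave no adjusted p. In naive KO4, 3 of 9 tested genes of the set were higher and 0 lower, where 35.0% of all genes tested were called, 17.2% higher and 17.8% lower. In naive KO8, 3 of 8 were higher and 1 lower, with 31.1% of all genes called, 15.8% higher and 15.3% lower. In primed KO4, 2 of 6 were higher and 0 lower, with 14.7% of all genes called, 8.32% higher and 6.34% lower. In primed KO8, 1 of 6 was higher and 0 lower, with 11.2% of all genes called, 7.13% higher and 4.09% lower. In NPC KO4, 3 of 9 were higher and 3 lower, with 13.0% of all genes called, 7.85% higher and 5.12% lower. In NPC KO8, 0 of 9 were higher and 1 lower, with 9.87% of all genes called, 6.53% higher and 3.34% lower. In CM KO4, 2 of 10 were higher and 5 lower, with 45.7% of all genes called, 21.8% higher and 23.9% lower. In CM KO8, 1 of 10 was higher and 1 lower, with 20.4% of all genes called, 10.7% higher and 9.70% lower. Over all tables, 67 of 80 values were tested, and 18 of the 26 calls were in KO4. Among all genes, too, the share called was larger in KO4 than in KO8 at each stage, as given above. The set was chosen with these results known, so these shares are not read as a finding about the set.

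Of 14 tested values of the paternally expressed genes Peg10, Sgce, Mest and Nap1l5 in KO4, 10 were called higher and 1 lower. All of these calls were of Peg10, Sgce and Mest, which had been chosen for their changes, and none was of Nap1l5. By stage, 7.85% to 21.8% of all genes were called higher in KO4 and 5.12% to 23.9% lower. Of 20 tested values of the other 6 genes in KO4, 0 were called higher and 7 lower, 3 of them at NPC, where 5.12% of all genes were called lower in KO4, and 4 at CM, where 23.9% were. In KO8, 4 of 13 values of the paternally expressed genes were called higher and 0 lower, against 1 higher and 3 lower of 20 for the other genes. Those 4 calls were of Peg10 and Mest only. By stage, 6.53% to 15.8% of all genes were called higher in KO8 and 3.34% to 15.3% lower. Both clones share the WT libraries of a stage, and for that reason their values are set side by side and not correlated.

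**Figure D1:**
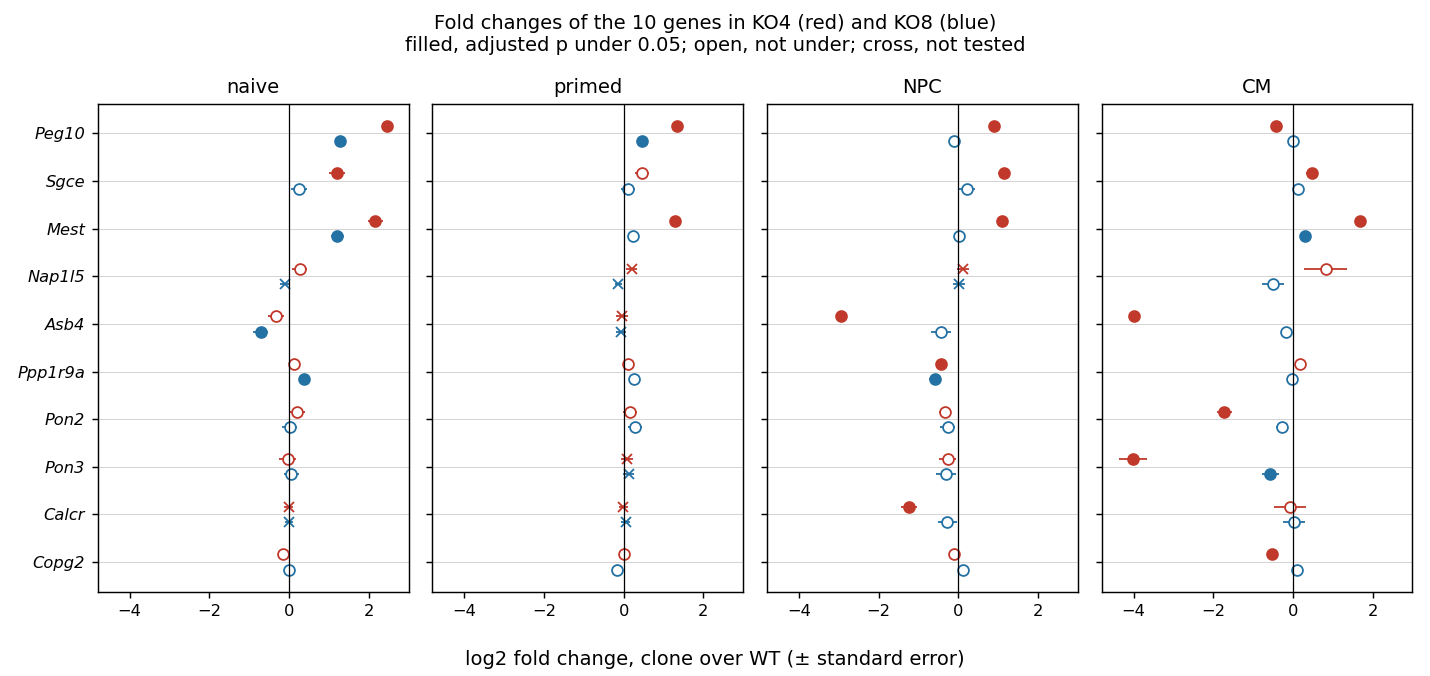
Log2 fold change of each clone over WT for the 10 genes, 1 panel per stage, with bars of 1 standard error. In KO4 (red) Mest lies right of 0 in all 4 panels, from 1.09 in NPC cultures to 2.17 in naive cells, while Asb4 lies at -2.94 in NPC and -3.99 in CM cultures, and KO8 (blue) lies nearer to 0 in each of these cases.

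Peg10 rose in both clones in naive and primed cells and in KO4 alone in NPC cultures, and it fell in KO4 CM cultures. Its mean level in naive cells was 449 normalized counts in WT, 2609 in KO4 and 1146 in KO8, with 3 libraries in each group. These levels were worked out from the mean over all libraries of a table and the fold change, and the tables give no spread for them. The log2 changes printed are the deposited ones, which a normal prior draws toward 0. The means were worked out without that prior, so they can differ by more than the log2 changes. The log2 fold changes in naive cells were 2.46 ± 0.08 (SE) in KO4 and 1.28 ± 0.09 in KO8. In primed cells, with 2 libraries a group as in all later stages, the means were 8250.1 in WT, 21112 in KO4 and 11477 in KO8. The log2 changes were 1.34 ± 0.04 and 0.47 ± 0.04, so the order of the 3 groups was the same as in naive cells. In NPC cultures Peg10 stood at 40510.0 in WT, 76114 in KO4 and 37552 in KO8, changes of 0.90 ± 0.05 and -0.10 ± 0.12, of which that of KO4 was called. In CM cultures the WT mean of 32675 compared with 24335 in KO4 and 32687 in KO8. There KO4 was lower by a log2 change of -0.42 ± 0.10 (adjusted p = 8.2e-05), and the change in KO8 was 0.00 ± 0.09.

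Sgce, the head-to-head neighbour of Peg10, was higher in KO4 than in WT at every stage and passed the test at 3 of them. In naive cells the means were 30.4 in WT, 101.2 in KO4 and 42.0 in KO8, and in primed cells 42.5, 84.1 and 52.0. KO4 rose in naive cells by a deposited log2 change of 1.21 ± 0.20, and its value of 0.46 ± 0.18 in primed cells missed the threshold (adjusted p = 0.066). With the prior removed, as for the means, these changes were 1.74 ± 0.29 and 0.99 ± 0.39. In NPC cultures Sgce stood at 321 in WT, 774 in KO4 and 382 in KO8, and in CM cultures at 734, 1019 and 808. The KO4 changes of 1.14 ± 0.13 and 0.47 ± 0.14 were both called. At CM, therefore, Sgce was called higher and Peg10 lower in the same KO4 libraries. In KO8 the 4 deposited values of Sgce lay between 0.11 and 0.26, or 0.14 and 0.48 with the prior removed, and none was called.

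Mest rose in KO4 at all 4 stages, the only gene of the set with 4 upward calls in a clone, and rose in KO8 in naive cells and CM cultures. Naive cells held 605 normalized counts in WT, 4028 in KO4 and 1801 in KO8. KO4 stood 6.66-fold above WT and KO8 2.98-fold, or by deposited log2 changes of 2.17 ± 0.18 and 1.21 ± 0.17, which the prior had drawn toward 0. In primed cells the means were 1083 in WT, 2771 in KO4 and 1290.5 in KO8, and the log2 changes 1.29 ± 0.08 and 0.23 ± 0.09. That of KO8 was not called (adjusted p = 0.079). NPC cultures held 12355 in WT, 26707 in KO4 and 12610.5 in KO8, changes of 1.09 ± 0.06 and 0.03 ± 0.14. Here KO8 could not be told from WT, with a 95% interval of -0.26 to 0.32 once the prior was removed. CM cultures held 16849 in WT, 54083 in KO4 and 20745 in KO8. Both changes were called, 1.68 ± 0.07 in KO4 and 0.30 ± 0.07 in KO8 (adjusted p = 0.00068).

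Nap1l5 had low levels and was not called in any table, 5 of its 8 values being without an adjusted p. The WT means were 5.39 in naive cells, 9.46 in primed cells, 5.23 in NPC and 21.3 in CM cultures. The KO4 means were 11.4, 20.8, 10.6 and 43.6 in the same order, and the KO8 means 2.75, 2.08, 5.60 and 6.13. KO4 thus stood between 2.02 and 2.2 times WT at each stage, while KO8 was below WT except in NPC cultures. The KO4 intervals all contained 0, from -0.28 to 2.34 on the log2 scale at CM with the prior removed, so no difference was detectable at this depth. Herc3, the gene around it, was lower in naive KO4 (-0.44 ± 0.09) and higher in KO4 CM cultures (0.60 ± 0.17), and was not called in KO8 at any stage.

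**Figure D2:**
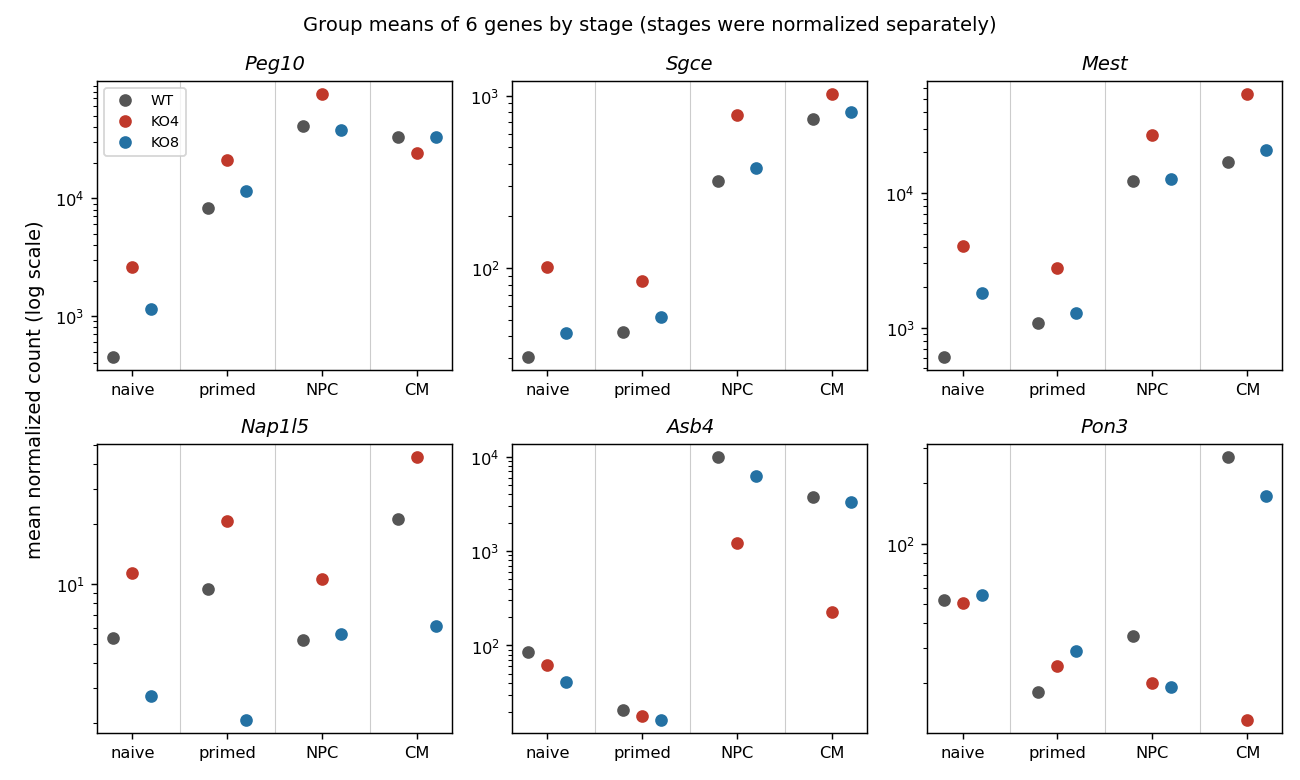
Mean normalized count (log axis) of 6 genes in WT (grey), KO4 (red) and KO8 (blue) at each stage; the stages were normalized separately and no spread is available for a mean. KO4 is the highest of the 3 groups for Sgce, Mest and Nap1l5 at all stages and for Peg10 at all except CM, whereas for Asb4 at NPC (1216) and CM (226) and for Pon3 at CM (13.2) it is the lowest.

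Asb4, the maternally expressed gene of the Peg10 domain, showed the largest loss of the set in KO4 NPC cultures. NPC cultures held 9925 normalized counts in WT, 1216 in KO4 and 6219 in KO8. KO4 fell by 2.94 ± 0.08 on the log2 scale, and the KO8 value of -0.44 ± 0.25 was not called (adjusted p = 0.37). CM cultures held 3690.1 in WT, 226 in KO4 and 3277 in KO8, with changes of -3.99 ± 0.14 (called) and -0.17 ± 0.09 (not called). In naive cells the order was different. There the mean was 85.5 in WT, 62.8 in KO4 and 41.2 in KO8, and KO8 (-0.71 ± 0.19, adjusted p = 0.00077) was called while KO4 (-0.33 ± 0.19) was not. Primed cells, with means of 16.4 to 21.0 in the 3 groups, gave no tested value.

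Ppp1r9a, which encodes neurabin, a scaffold of protein phosphatase 1 at actin, was the only gene of the set called lower in both clones at the same stage other than Pon3. In NPC cultures it stood at 4118 in WT, 3046 in KO4 and 2651 in KO8, changes of -0.42 ± 0.07 and -0.58 ± 0.15. In naive KO8 it was higher by 0.38 ± 0.09, from 650.4 to 857, and the naive KO4 value of 0.12 ± 0.09 was not called. Its values in primed and CM cells lay between -0.03 and 0.27 and were not called.

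Pon2 and Pon3, which encode paraoxonases, changed at CM. Pon3 stood there at 271 in WT, 13.2 in KO4 and 172 in KO8, and was called lower in both clones, by -4.01 ± 0.36 and -0.56 ± 0.22 (adjusted p = 0.046 in KO8). Pon2 stood at 612 in WT, 179.7 in KO4 and 502 in KO8, and fell in KO4 (-1.73 ± 0.19) while the KO8 value of -0.27 ± 0.15 was not called. At the other stages neither gene was called in a clone. The third paraoxonase gene, Pon1, had a mean of 7.22 in WT CM cultures and was not called in any table.

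Calcr, the calcitonin receptor gene, was tested in NPC and CM cultures only. At NPC it stood at 240.1 in WT, 73.7 in KO4 and 182 in KO8, and fell in KO4 (-1.24 ± 0.20), while the KO8 value was -0.27 ± 0.25. Copg2, a subunit of the coatomer that coats Golgi vesicles, was called in 1 of 8 tables. At CM it stood at 1728 in WT, 1195 in KO4 and 1866 in KO8, and fell in KO4 by 0.53 ± 0.12 on the log2 scale. In the same libraries Mest, with which it shares exonic bases, was higher by 1.68.

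The 2 clones differed from each other in several of these changes. The difference of the 2 log2 fold changes was tested over all genes with the squares of both standard errors added. Because the WT libraries are shared, adding them overstates the error. The prior, however, makes the deposited standard errors smaller for weakly expressed genes and for Mest in naive cells. For these the result cannot be taken as an upper limit. For Sgce in naive cells the errors were 0.20 in KO4 and 0.20 in KO8, against 0.29 and 0.37 with the prior removed. For Mest in naive cells they were 0.18 and 0.17, against 0.23 and 0.22. The fold changes of Mest there were 2.17 and 1.21 as deposited, and 2.73 and 1.58 with the prior removed. In naive cells 3.52% of all genes passed, among them Peg10, Sgce and Mest, which were higher in KO4 than in KO8 by 1.18 ± 0.12, 0.95 ± 0.29 and 0.95 ± 0.25. In primed cells 0.575% of genes passed, among them Peg10 (0.87 ± 0.06) and Mest (1.06 ± 0.12). In NPC cultures 0.671% passed, among them Peg10 (1.00 ± 0.13), Sgce (0.93 ± 0.25), Mest (1.07 ± 0.15) and Asb4 (-2.49 ± 0.26). The difference of Sgce missed the threshold at both stages once the prior was removed (adjusted p = 0.14 in naive cells and 0.079 in NPC cultures). In CM cultures, where 31.3% of genes passed, Mest was higher in KO4 (1.38 ± 0.10), and Peg10, Asb4, Pon2, Pon3 and Copg2 were lower, Asb4 by -3.82 ± 0.17.

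**Figure D3:**
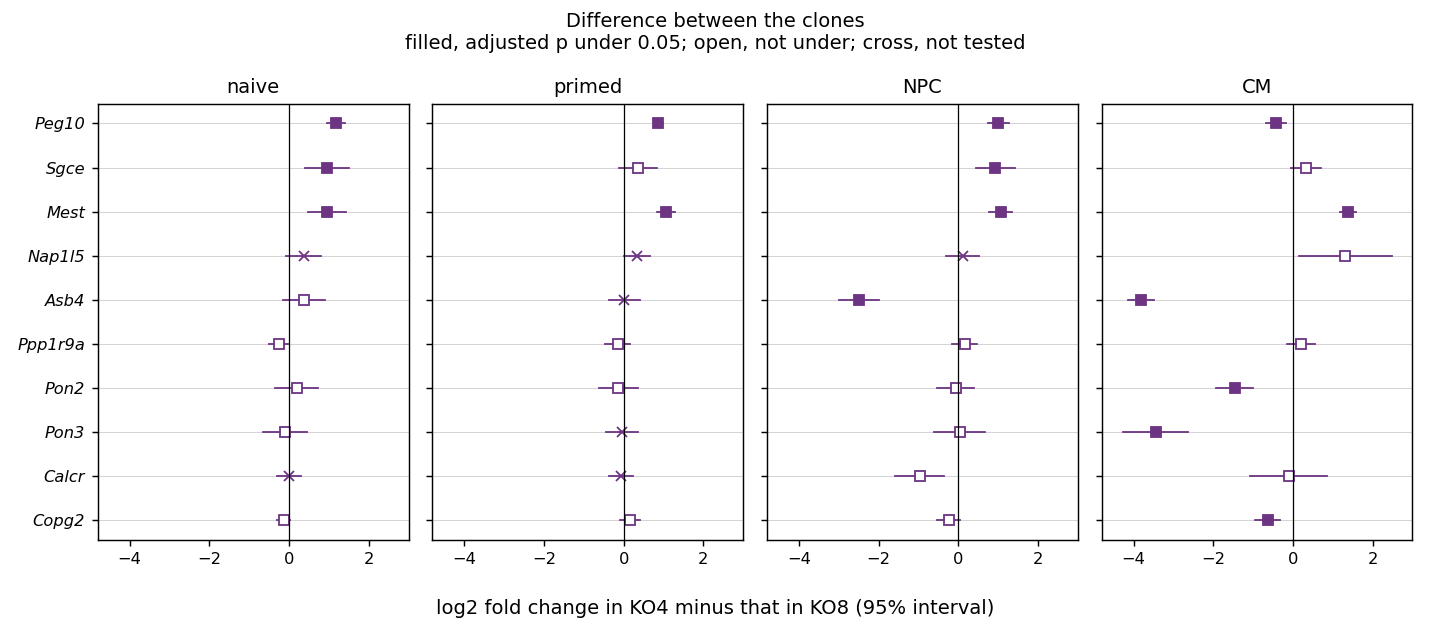
Log2 fold change in KO4 minus that in KO8 for the 10 genes at each stage, with 95% intervals that take the 2 standard errors as independent. Mest lies right of 0 at every stage, between 0.95 and 1.38, while Asb4 lies left of 0 in NPC and CM cultures.

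The log2 changes of Peg10 and of Mest were lower at each later stage than in naive cells in both clones. The difference of the fold changes, later stage minus naive, passed in both clones in the same direction for 3.77% of genes at primed, 4.85% at NPC and 10.8% at CM. For Peg10 it was -1.12 in KO4 and -0.81 in KO8 at primed, -1.56 and -1.38 at NPC, and -2.88 and -1.28 at CM. For Mest it was -0.87 and -0.98 at primed, -1.07 and -1.19 at NPC, and -0.49 and -0.92 at CM. These differences use the deposited fold changes, and the prior drew that of Mest toward 0 most in naive cells. With the prior removed, Mest in KO4 changed by 2.73 in naive cells, 1.36 at primed, 1.11 at NPC and 1.68 at CM. In KO8 it changed by 1.58, 0.25, 0.03 and 0.30. The gaps to naive cells were thus wider than the deposited values show. Ppp1r9a was the remaining gene of the set that passed in both clones in the same direction, at NPC, with -0.54 and -0.96. Asb4 passed in both clones at CM in opposite directions, with -3.66 ± 0.24 in KO4 and 0.55 ± 0.21 in KO8.

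Compared with other genes of the same stage, Peg10 and Mest ranked in the middle in naive WT cells and near the top in NPC and CM cultures. Per length, the naive WT level of Peg10 lay at the 44.5th percentile of the genes with reads and that of Mest at the 53.8th. At primed they lay at the 94.6th and the 76.5th, at NPC at the 99.6th and the 99.1st, and at CM at the 99.4th and the 99.3rd. Asb4 lay at the 35.6th percentile in naive cells and at the 98.7th in NPC cultures. Sgce ran from the 29.8th in naive cells to the 70.7th in CM cultures, while Nap1l5 stayed between the 17.9th and the 28.8th. Copg2 lay between the 74.0th and the 82.6th at all stages. The stages were normalized separately, so these are ranks within a stage.

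Of 35 neighbours of Peg10, Mest and Nap1l5 listed by name, 34 were in the tables. The list does not hold every gene near them. In naive cells 38.1% of those tested were called in KO4 and 18.2% in KO8, against 35.0% and 31.1% of all genes tested. In primed cells 6.25% were called in each clone, against 14.7% and 11.2% of all genes. In NPC cultures the shares were 8.33% and 4.17%, against 13.0% and 9.87%. In CM cultures they were 40.0% and 28.6%, against 45.7% and 20.4%. Those called the same way in KO4 and KO8 are named as a description, without the matching share of all genes. In naive cells Pdk4, a kinase that inhibits pyruvate dehydrogenase, was lower (-0.88 ± 0.14 in KO4, -0.50 ± 0.13 in KO8). Fam13a was also lower in naive cells (-1.09 ± 0.22 and -0.52 ± 0.19), and Zc3hc1 was higher (0.30 ± 0.05 and 0.23 ± 0.05). At CM, Casd1 (-1.0 ± 0.12 and -0.31 ± 0.11), Gng11 (-3.14 ± 0.32 and -0.64 ± 0.21) and Pdk4 (-1.94 ± 0.41 and -0.93 ± 0.28) were lower. Cep41 (0.83 ± 0.22 and 0.75 ± 0.20) and Tmem209 (0.56 ± 0.12 and 0.30 ± 0.11) were higher there. No neighbour of the list was called the same way in KO4 and KO8 at primed or NPC. Of the genes outside the list within 1.5 Mb of Peg10 or Mest with a base mean over 100, chosen after their values were seen, 4 were. Podxl was lower at primed (-0.50 ± 0.08 in KO4, -0.25 ± 0.08 in KO8) and at NPC (-0.46 ± 0.06 and -1.06 ± 0.13). Ccdc136 was lower at primed (-1.5 ± 0.12 and -0.92 ± 0.11), Smo was higher at primed (0.53 ± 0.10 and 0.44 ± 0.10), and Kcp was lower at NPC (-0.41 ± 0.12 and -0.80 ± 0.16).

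**Figure D4:**
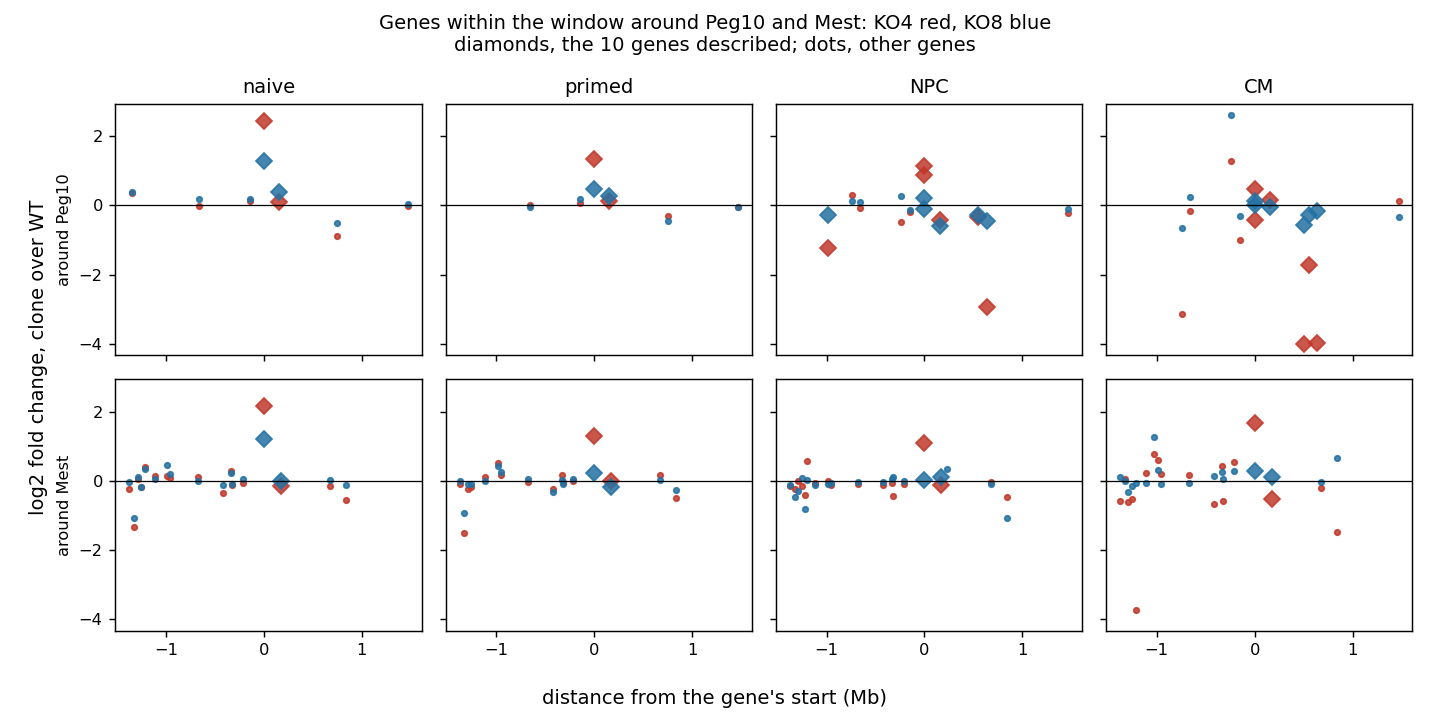
Log2 fold change of genes whose base mean reached 100 within 1.5 Mb of the start of Peg10 (upper row) and Mest (lower row), by distance in Mb, in KO4 (red) and KO8 (blue), with the genes of the set as diamonds. In naive cells Peg10 (2.46 in KO4) and Mest (2.17 in KO4) have the highest values of their windows, where the other genes drawn reach at most 0.88 and 1.35 in either direction. Sgce, next to Peg10 and at 1.21 in naive KO4, is not drawn there because its base mean was 65.8. The listed neighbours Vps50 and Cep41 are not drawn either.

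Regulators of imprinting and imprinted genes elsewhere in the genome were counted for comparison. Of 15 regulators, all tested in every table, 7 were higher and 3 lower in naive KO4, and 4 and 5 in naive KO8. In primed cells 1 was higher and 3 lower in KO4, and 2 and 1 in KO8. In NPC cultures 2 were higher and 1 lower in KO4, and 1 and 0 in KO8. In CM cultures 10 were higher and 3 lower in KO4, and 2 and 2 in KO8. Of all genes tested, 35.0% were called in naive KO4 and 31.1% in naive KO8, and 14.7% and 11.2% in primed cells. In NPC cultures these shares were 13.0% and 9.87%, and in CM cultures 45.7% and 20.4%. The same shares apply to the counts of the other imprinted genes. Ctcf, the insulator protein gene, was higher in all 8 tables, by log2 changes of 0.34 to 0.82. Dnmt3l, the cofactor of the de novo DNA methyltransferases, rose in naive cells of both clones (1.48 ± 0.07 and 1.23 ± 0.07), and Dppa3, which protects DNA methylation in the early embryo, fell (-0.99 ± 0.07 and -0.24 ± 0.06). At CM both Dnmt3l and Dppa3 were higher in KO4 (1.26 ± 0.28 and 1.14 ± 0.27) and lower in KO8 (-1.98 ± 0.27 and -1.95 ± 0.29). Dnmt3l was also higher in primed KO8 (0.16 ± 0.04). Zfp57 was lower in KO8 in naive (-0.45 ± 0.05) and primed cells (-0.30 ± 0.05) and not called in KO4 there (-0.05 ± 0.05 and 0.01 ± 0.05). At CM Zfp57 was higher in KO4 (0.47 ± 0.16) and not called in KO8 (0.19 ± 0.15). Of 27 other imprinted genes, 8 of 22 tested were higher and 3 lower in naive KO4, and 5 and 7 of 22 in naive KO8. In primed cells 11 of 21 were higher and 2 lower in KO4, and 2 and 1 of 22 in KO8. In NPC cultures 11 of 25 were higher and 5 lower in KO4, and 2 and 6 in KO8. In CM cultures 4 of 25 were higher and 14 lower in KO4, and 10 and 5 of 26 in KO8. The median log2 change of this list in KO4 was 0.20 in naive, 0.29 in primed, 0.14 in NPC and -0.51 in CM cells, where that of all genes tested lay between -0.014 and -0.001. In KO8 it was -0.05 in naive, 0.05 in primed, -0.18 in NPC and 0.32 in CM cells.

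The genes whose 8 fold changes lay nearest to those of Peg10 were Id1, Smarca1, Kifc3, Piezo1 and Sema6a, among 8921 genes whose base mean reached 100 in all tables. Their root mean square difference from Peg10 was between 0.48 (Id1) and 0.71 (Sema6a) on the log2 scale, against a median of 1.18 over all those genes. Id1, an inhibitor of helix-loop-helix transcription factors, changed by 1.95 and 0.96 in naive KO4 and KO8 and by -0.68 and 0.04 at CM. For Mest the nearest were Fgfr1, Kifc3, Kif5c, Naf1 and Klhdc4, at 0.66 to 0.68, against a median of 1.23. Fgfr1, Kifc3, Naf1 and Klhdc4 lie on chromosome 8, whose median change was above 0 in all 8 tables as given above. None of the named genes lies on chromosome 6 by the annotation, which placed all of them except Piezo1.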

How the data were processed

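The 10 genes, the gene lists and the comparisons were chosen with earlier results of these data known. Groups were taken from the sample labels. Reads were trimmed with Trim Galore 0.6.7, aligned to mm9 with HISAT2 2.2, counted per gene with featureCounts and tested by the authors with DESeq2 1.46.0, with 1 clone and the WT libraries of the same stage in a table. The 8 deposited tables hold, for 25209 genes, a base mean (normalized signal averaged over the libraries of that table), a log2 fold change (KO over WT) with its standard error, the Wald score, and the p-value and adjusted p-value, all as the authors computed them. They hold no count per library, so the edgeR test planned for counts was not run and the authors' calls stand. The report uses these columns although they are the authors' own comparison, since they are the only values of the tables. No column held values of other samples.

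The deposited fold changes carry a normal prior (SD 0.343 to 1.31 on the log2 scale). It draws fold changes with a large standard error toward 0, those of weakly expressed genes among them. Deposited values are printed as log2 fold changes. The prior was removed with the standard error to obtain group means, ratios and the intervals said to be without it. WT means from the 2 tables of a stage then differed by 0.0003 to 0.0020 (log2, middle 90% of genes whose base mean reached 100), against 0.0049 to 0.1215 before. KO8 means were put on the scale of the KO4 table. Differences between clones or stages were tested as z over all genes, with Benjamini-Hochberg adjustment. Library depth came from genes with 1 read. Besides the 10 genes, neighbours called the same way in KO4 and KO8 and the 5 genes nearest to Peg10 and to Mest are named; other list members were chosen after their values were seen. A marker of the neural list is not reported here. The script was tested on simulated data. Python 3.11.15, numpy 2.4.6, pandas 2.3.3, scipy 1.17.1 and matplotlib 3.10.9 were used.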

Additional observations from a re-analysis of the deposited data

Results flagged for a closer look

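The clones differed, by the test of the difference itself, in the log2 fold changes of several genes. In naive cells KO4 minus KO8 was 1.18 for Peg10, 0.953 for Sgce and 0.954 for Mest, and in primed cells 0.867 for Peg10 and 1.06 for Mest. In NPC cultures it was 1.00 for Peg10, 0.932 for Sgce, 1.07 for Mest and -2.49 for Asb4. With the prior removed, the difference of Sgce missed the threshold in naive cells (adjusted p = 0.14) and in NPC cultures (adjusted p = 0.079). In CM cultures it was -0.423 for Peg10, 1.38 for Mest, -3.82 for Asb4, -1.46 for Pon2, -3.45 for Pon3 and -0.636 for Copg2.

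The later stages differed from naive cells in both clones in the same direction for 3 genes. For Peg10 the change at primed minus that in naive cells was -1.12 in KO4 and -0.810 in KO8, at NPC -1.56 and -1.38, and at CM -2.88 and -1.28. For Mest it was -0.875 and -0.979 at primed, -1.07 and -1.19 at NPC, and -0.489 and -0.917 at CM. These are differences of deposited fold changes, and for Mest the gaps to naive cells were wider with the prior removed. For Ppp1r9a it was -0.539 and -0.959 at NPC. Asb4 at CM passed in both clones in opposite directions, with -3.66 in KO4 and 0.546 in KO8.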

How the results depend on the processing

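No paired analysis was possible because the tables hold no value per library, and for the same reason no replicate could be left out. The number of genes called per table stayed within 1.5 times its value except in 2 tables. In primed KO8 it went from 1 to 0 with a minimum absolute log2 change of 0.5, and in CM KO8 from 2 to 1 with an adjusted p under 0.01, with adjustment over all genes with a p-value, or with that minimum change. Pon3 in CM KO8 lost its call relative to the chromosome 6 median (adjusted p = 0.052), and Copg2 in naive KO4 gained one relative to the median of all genes (-0.14, adjusted p = 0.047). The clone difference of Sgce lost its call with the prior removed in naive cells (1.25, adjusted p = 0.14) and in NPC cultures (1.02, adjusted p = 0.079). With a correlation of 0.5 for the shared WT libraries, the clone differences of Ppp1r9a in naive cells, Calcr at NPC, and Sgce and Nap1l5 at CM passed as well. With the deposited fold change, an alternative added after seeing the data, the naive WT means of Sgce and Mest were 39.7 and 844. The sign turned for values near 0, none of them called. Relative to the all-gene median these were Calcr (0.0027) and Copg2 (0.0050) in naive KO8 and Peg10 in CM KO8 (-0.0014). Relative to the chromosome 6 median they were Calcr in naive KO4 (0.0044) and KO8 (0.0044), and Copg2 in naive KO8 (0.0067) and primed KO4 (0.0065). With the prior removed they were the clone difference of Calcr in naive cells (0.0038) and the stage differences of KO4 for Nap1l5 at primed (0.054) and CM (-0.050) and for Calcr at CM (0.053). The cause of these changes was not tested. The 13 values without an adjusted p belonged to Nap1l5, Calcr, Asb4 and Pon3.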

Other observations

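A few genes near the set were noticed after their values were seen. Klf14, a transcription factor gene of the Mest domain that is expressed from the maternal allele, had mean levels of 81.0 normalized counts in WT, 10.0 in KO4 and 121.6 in KO8 in NPC cultures, and fell in KO4 by 1.32 ± 0.22 (SE) on the log2 scale while the KO8 value of 0.34 ± 0.26 was not called. In CM cultures the levels were 36.0, 1.62 and 100.2, and KO4 was called lower (-2.85 ± 0.63) and KO8 higher (0.93 ± 0.30). In naive and primed cells its levels were between 0.33 and 4.09, and no adjusted p was given. Col1a2, a collagen gene 0.24 Mb from the start of Peg10, was higher at CM in both clones (1.30 ± 0.10 in KO4, 2.62 ± 0.10 in KO8). At that stage Peg10 was lower in KO4 and not called in KO8 (0.00 ± 0.09). At NPC, where Peg10 was higher in KO4, Col1a2 was lower in KO4 (-0.48 ± 0.08) and not called in KO8 (0.26 ± 0.11). Ccdc136, 1.33 Mb from the start of Mest, was lower in naive cells of both clones (-1.35 ± 0.08 and -1.07 ± 0.08), where Mest was higher. At CM, where Mest was also higher in both clones, Ccdc136 was not called in either (0.05 ± 0.13 and 0.00 ± 0.13).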
